A study of Mus musculus with 2 samples.

Results

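The genes described here are Cxcr2, a chemokine receptor of neutrophils, and 4 of its ligands, Cxcl1, Cxcl2, Cxcl3 and Cxcl5. They were selected by gene symbol in the feature table of the count matrices, and all 5 are among the 20855 genes with enough UMIs to be compared over all cells. Single cells came from subcutaneous tumors of MC38, a mouse colon adenocarcinoma line, in C57BL/6 mice aged 6–8 weeks. 1 library was made from the group labelled untreated, for which the design text names intratumoral saline with 10% DMSO, and 1 from tumors injected with MSA-2, a small-molecule agonist of STING, the adaptor of cytosolic DNA sensing. Both groups received 3 injections at 3-day intervals, and tumors were taken on day 7. The 3 mice of a group were pooled, so neither condition has a replicate, and the mice within a library cannot be told apart.

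CXCR2 lies on the surface of neutrophils and guides them toward chemokines that carry a Glu-Leu-Arg (ELR) motif near the amino terminus. Epithelial, stromal and myeloid cells make these ligands when NF-kB is activated by microbial products or by the cytokines IL-1 and TNF, and the mRNAs are short-lived. In tumors, the ligands are known for drawing in neutrophils and related suppressive myeloid cells.

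The untreated library held 14386 barcodes, of which 13334 remained as cells after filters on genes, mitochondrial UMIs and doublets. The MSA-2 library held 14617 barcodes, of which 13393 remained. The kept cells carried 183355500 UMIs in the untreated library, with a median of 8298.5 per cell, and 191888910 UMIs in the MSA-2 library, with a median of 9271. The libraries shared 53 barcode sequences, 39 of them among the kept cells of both. Levels are given as UMIs of a gene per 1000000 UMIs of the cells summed (CPM). A 3′ protocol counts each captured mRNA end once, so transcript length does not enter a comparison between genes. Differences are log2 ratios of the MSA-2 level over the untreated level. All intervals are exact 95% intervals that cover counting error only, not the spread between mice.

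Cells were assigned 1 by 1 to classes by the share of their UMIs in fixed marker lists, none of which contains a member of the gene family. The composition of the libraries differed most in myeloid cells. The neutrophil class held 33 cells (0.247%) of the untreated library and 2542 cells (19.0%) of the MSA-2 library. The macrophage/monocyte class held 3967 cells (29.8%) and 1569 cells (11.7%). The tumor-list class held 6133 cells (46.0%) and 6882 cells (51.4%), and the fibroblast class held 180 cells (1.35%) and 613 cells (4.58%). The NK/T class held 1413 cells (10.6%) and 256 cells (1.91%), and the endothelial class held 59 and 74 cells. The study's methods mention a sort before loading without giving its gate in the sources used here, and its part in these shares was not tested. A class is a range of a score. Within 25% of the threshold lay 2.95% of the tumor-list cells, 13.4% of the fibroblasts, 12.4% of the macrophages/monocytes and 0.944% of the neutrophils of the MSA-2 library. Cells that passed the threshold of more than 1 list (431 and 256 cells) or of none (960 and 1150 cells) were kept out of the classes.

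The defining markers were checked in each class. By Krt8, Krt18 and Krt19, the tumor list did not mark an epithelial class. Krt8 measured 0.146 CPM untreated and 0.261 CPM after MSA-2, Krt18 measured 0.00731 and 0.0127 CPM, and Krt19 had 0 UMIs in the untreated library. The list was carried by Gng11 at 1371 and 2162 CPM and by Ccn1 at 690.01 and 329 CPM. The class also held collagen and proteoglycan mRNA, with Col3a1 as the leading fibroblast-list gene of the untreated library (1194 CPM) and Dcn as that of the MSA-2 library (1510.0 CPM). Of its 7 untreated and 6 MSA-2 clusters, only 1 had a gene of the tumor list (Gng11) among its 10 leading genes. In 3 of the untreated clusters and 1 of the MSA-2 clusters, markers of other classes outnumbered those of the tumor list. Among these, the untreated cluster of 1240 cells had Dcn and Col3a1 of the fibroblast list. Krt14, a keratin outside the tumor list, was a leading gene of an untreated cluster of 878 cells. The class is therefore called the tumor-list class. The fibroblast class carried 47985 and 31874 CPM of its own 10-gene list, led by Col3a1, and had 0 UMIs of Krt8 and Krt18 in both libraries. The neutrophil class of the MSA-2 library carried all 12 genes of its list, at 102210.0 CPM in sum and led by S100a9 at 47261 CPM. That of the untreated library carried 11 of 12 genes at 32574 CPM, with S100a9 at 10989 CPM and Ly6g at 0 UMIs, against 155 CPM of Ly6g after MSA-2. Every untreated neutrophil value therefore rests on 33 shallow cells (median 1266 UMIs) without the lineage marker Ly6g.

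The 4 ligand genes lie on the plus strand of chromosome 5, within 146.6 kb of the GRCm38 assembly (mm10). Cxcl5 (ENSMUSG00000029371) occupies chr5:90759360-90761624, Cxcl3 (ENSMUSG00000029379) chr5:90786103-90789600, Cxcl1 (ENSMUSG00000029380) chr5:90891241-90893115 and Cxcl2 (ENSMUSG00000058427) chr5:90903871-90905938. Cxcr2 (ENSMUSG00000026180) lies apart, at chr1:74153989-74161246 on the plus strand. The genes are near copies in part, and the 3′ ends that a 3′ protocol reads were compared. Of 837 31-base words in the last 500 bases of the Cxcl2 transcripts, 91 (10.9%) also occurred in Cxcl3 transcripts, whereas 0 of 940 words from the Cxcl3 ends occurred in Cxcl2. No other pair of members shared a word. How reads from those Cxcl2 stretches were counted was not tested, and the levels of Cxcl2 and Cxcl3 are uncertain to that extent.

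Cxcl1, Cxcl2 and Cxcl3 were all higher over all cells of the MSA-2 library, and stretches of their promoters are printed here, from RefSeq sequence of GRCm38.p6 covering 250 bases before to 50 bases after each start site. The table held 4 of the 5 members, and no entry for Cxcl5. Capitals mark matches, on either strand, to the NF-kB-type motif GGNNNTTCC, which includes the more specific GGAATTTCC. The stretches of 70 bases, plus strand, lie at chr5:90891145-90891214 (Cxcl1), chr5:90903773-90903842 (Cxcl2) and chr5:90785999-90786068 (Cxcl3).
Cxcl1: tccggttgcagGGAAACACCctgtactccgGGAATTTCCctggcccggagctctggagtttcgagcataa
Cxcl2: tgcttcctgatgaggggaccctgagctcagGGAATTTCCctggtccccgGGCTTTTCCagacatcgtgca
Cxcl3: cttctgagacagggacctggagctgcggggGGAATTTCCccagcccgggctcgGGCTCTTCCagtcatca
Each of the 3 promoters held 2 matches to GGNNNTTCC, of which 1 was GGAATTTCC, starting at -70 (Cxcl1), -96 (Cxcl2) and -72 (Cxcl3) from the start site. The Cxcr2 promoter held 0 matches to either. Of all 32851 mouse promoters of this length, 18.5% held GGNNNTTCC, 2.16% held it at least 2 times and 104 (0.317%) held GGAATTTCC. A match describes letters in a window and does not show that a factor binds there.

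Summed over all kept cells, every member was higher in the MSA-2 library. A log2 ratio of 1 or more was reached by 5 of 5 members, against 12.3% of 20855 genes with enough UMIs to be measured, and the median of those genes was 0.02. A ratio of -1 or less was found for 0 of 5 members and for 8.94% of the genes. Cxcl1, the ligand with the most UMIs in the untreated library, measured 961 CPM untreated and 2657 CPM after MSA-2 (2.76-fold; log2 ratio 1.47, 1.46–1.48). Cxcl2 measured 386 and 2894 CPM (7.50-fold; log2 ratio 2.91, 2.90–2.92). Cxcl3 measured 7.55 and 159 CPM (21.0-fold; log2 ratio 4.39, 4.31–4.47). Under the cell filter used here, the order of the ligands by level thus differed. Cxcl1 lay above Cxcl2 in the untreated and below it in the MSA-2 library. Cxcl5 was nearly absent from the untreated library, at 129 UMIs (0.704 CPM), and had 11798 UMIs (61.5 CPM) after MSA-2 (log2 ratio 6.45, 6.20–6.71). The receptor Cxcr2 had 28 UMIs (0.153 CPM) and 1255 UMIs (6.54 CPM; log2 ratio 5.42, 4.88–6.02). With a stricter cell filter (1000 genes or more, and no more than 10% of UMIs mitochondrial; their parts were not separated), which left 1 untreated and 242 MSA-2 neutrophils, the log2 ratios were lower for Cxcl2 (1.76), Cxcl3 (3.39) and Cxcr2 (4.21). With equal weight per cell they were higher, at 4.09, 5.24 and 6.83. Applied to the untreated levels given here, the stricter-filter ratios of 1.49 for Cxcl1 and 1.76 for Cxcl2 would leave Cxcl1 above Cxcl2 after MSA-2. The levels themselves were not computed with the stricter filter, so its effect on the order was not tested.

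**Figure D1:**
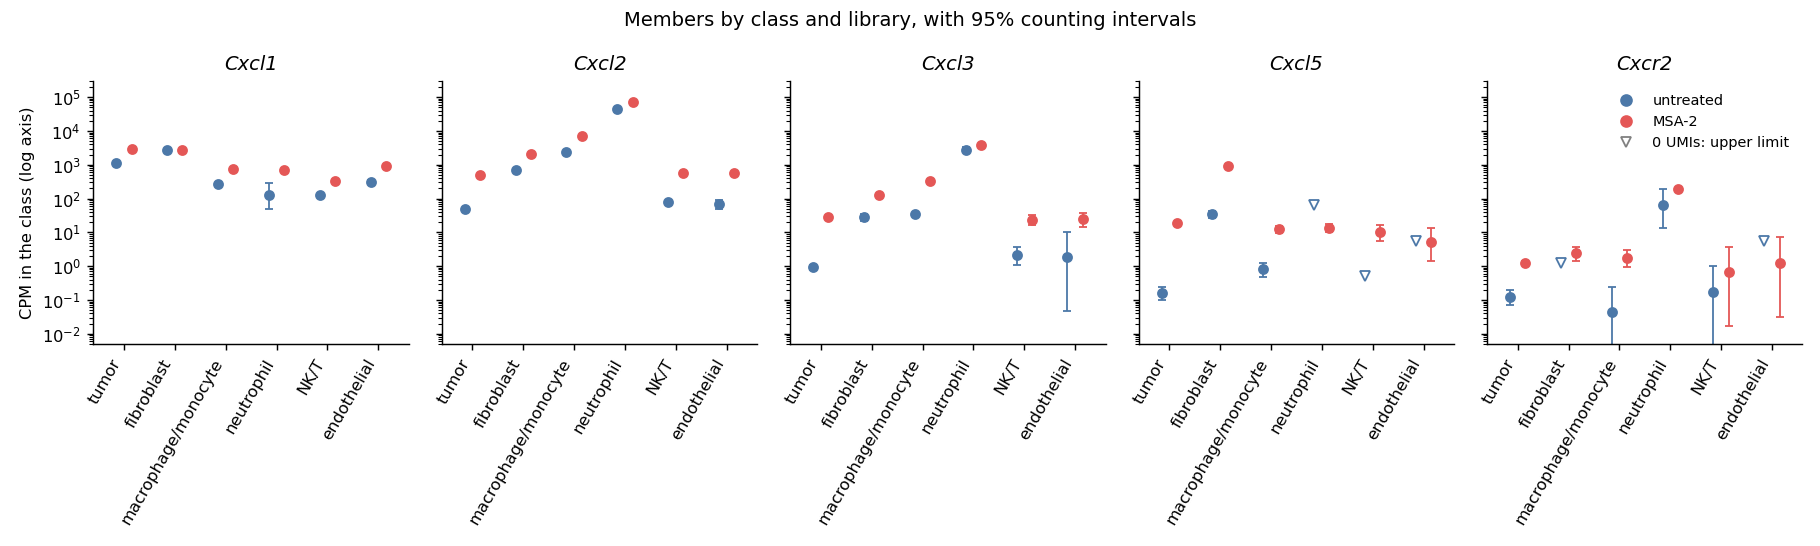
Level of each member (CPM, log axis) in 6 classes of the untreated and MSA-2 libraries; points are class sums, bars are 95% counting intervals, and open triangles give the upper limit where no UMI was found. Cxcl1 was highest in the tumor-list and fibroblast classes, Cxcl2, Cxcl3 and Cxcr2 in neutrophils and Cxcl5 in fibroblasts.

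Cxcl1, a major neutrophil attractant of epithelial and stromal cells, came mainly from the tumor-list class in both libraries. Its level in that class was 1097 CPM untreated and 2849.8 CPM after MSA-2 (log2 ratio 1.38, 1.37–1.39). In the tumor-list class a log2 ratio of 1 or more was reached by 5 of 5 members, against 13.3% of 19556 genes measured there. A ratio of -1 or less was reached by 0 of 5, against 6.55%. Against NK/T cells of the MSA-2 library, Cxcl2 stood at -0.25 and Cxcl3 at 0.28 (-0.20 to 0.81) on the log2 scale. Cxcr2 stood at 0.91 (-1.58 to 6.22). Whether tumor-list cells made the mRNAs of these genes was not tested. The tumor-list class held 85.1% of all untreated Cxcl1 UMIs and 87.8% of those after MSA-2, beside 74.6% and 81.8% of the UMIs of all genes. It made up 89.3% of the difference in total Cxcl1 between the libraries. Most cells of the class took part. The median cell measured 574 CPM untreated and 2196 CPM after MSA-2, and the 10% of cells with the most Cxcl1 UMIs held 43.1% and 36.4% of them. After thinning each cell to 1000 UMIs, 49.1% and 77.7% of tumor-list cells had a Cxcl1 UMI (94.3% and 99.3% unthinned; median depths 20095 and 19615.5 UMIs). In the NK/T class, which is not known as a source of Cxcl1, the thinned shares were 13.5% and 34.1% (36.4% and 80.5% unthinned; median depths 3402 and 4992 UMIs).

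Fibroblasts had the highest untreated Cxcl1 level of the 6 classes plotted. Among the smaller classes pericytes, at 19 and 11 cells, were higher still, at 4116 CPM untreated and 3649.6 CPM after MSA-2. The fibroblast class measured 2649 CPM untreated and 2778 CPM after MSA-2 (log2 ratio 0.07, 0.03–0.11). Neither the sign nor the size of this ratio was stable, since it was -0.05 with clusters in place of the gates, -0.03 with equal weight per cell and -0.22 with a stricter gate, but 0.29 with edgeR's TMM scaling factors and 0.94 with a looser gate. Fibroblasts ranked above the tumor-list class in the untreated library and just below it in the MSA-2 library. By the share of UMIs in the fibroblast list, cells at 600 or more per 10000 UMIs measured 3416 CPM untreated and 2019 CPM after MSA-2, whereas cells at 150–300 measured 2128 and 3086 CPM. Cells at 300–600 measured 2481 and 2442 CPM. From the lowest of these bins to the highest, they held 43 and 324, 85 and 265, and 52 and 24 cells. The difference thus had opposite signs in the outer bins, the highest of which held few MSA-2 cells, and was small between them.

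In the remaining plotted classes Cxcl1 was lower in level. Macrophages/monocytes measured 275 and 749 CPM (log2 ratio 1.45, 1.40–1.50), and endothelial cells 307 and 945 CPM (1.62, 1.38–1.87). Untreated neutrophils had 6 Cxcl1 UMIs (131 CPM), and MSA-2 neutrophils measured 719 CPM (log2 ratio 2.46, 1.33–3.90), which came to 0.34 when S100a8 and S100a9 were left out of the neutrophil list. In the untreated library the endothelial, macrophage/monocyte, neutrophil and NK/T levels followed in this order, with intervals that overlapped between neighbours, and in the MSA-2 library only those of macrophages/monocytes and neutrophils overlapped. In endothelial cells 3 of 3 members measured had a log2 ratio of 1 or more, against 6.98% of 8404 genes, and 0 of 3 had -1 or less, against 9.22%. In NK/T cells, too, 3 of 3 had 1 or more, against 4.51% of 10566 genes, and 0 of 3 had -1 or less, against 8.67%. Cxcl3 had 1 and 19 UMIs in endothelial cells and 12 and 35 in NK/T cells. It was measured in both classes through its MSA-2 UMIs, so no conclusion is drawn from these counts. Cxcl1 (1.34) and Cxcl2 (2.93) were also higher in NK/T cells, a class taken as a measure of background.

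**Figure D2:**
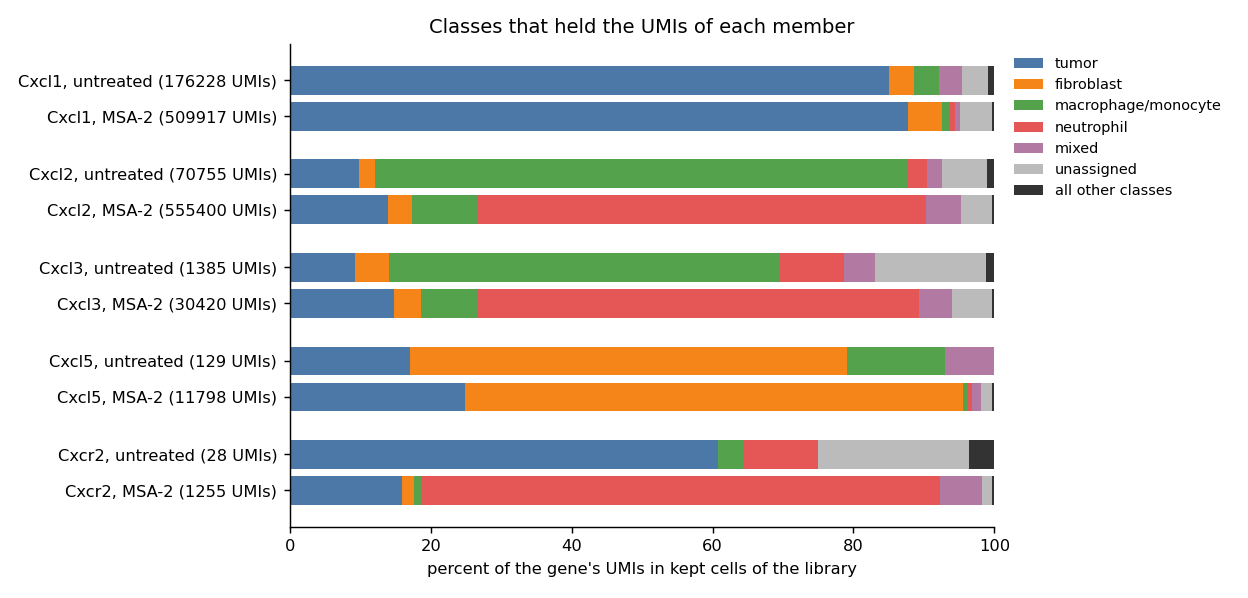
Share of each member's UMIs (percent of all UMIs of the gene in kept cells, horizontal axis) held by each class, with 1 bar per gene and library. The tumor-list class held most Cxcl1 in both libraries, and the largest Cxcl2 and Cxcl3 shares lay in macrophages/monocytes in the untreated and in neutrophils in the MSA-2 library.

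Cxcl2, also called MIP-2, is made by activated macrophages and by neutrophils themselves. Its main source differed between the libraries under the cell filter used here. Macrophages/monocytes held 75.6% of the untreated Cxcl2 UMIs (75.3–75.9%) and 9.31% of those after MSA-2. Neutrophils held 2.85% (2.73–2.98%) and 63.6%. The neutrophil share was 20.6% with the stricter cell filter, when macrophages/monocytes held 21.5%, so that neutrophils no longer ranked above them. The tumor-list class held 13.9% after MSA-2 under the filter used here. Its share with the stricter filter was not computed, so the largest source there is not known. The macrophage/monocyte share was 14.8% with clusters and 5.36% with the stricter gate. Of the difference in total Cxcl2 between the libraries, neutrophils made up 73.0%, the tumor-list class 14.5% and macrophages/monocytes -0.88%.

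Neutrophils had by far the highest Cxcl2 level of the 6 classes in both libraries. The neutrophil class measured 44087 CPM untreated and 71221 CPM after MSA-2 (log2 ratio 0.69, 0.63–0.76). Of 4 members measured in neutrophils, 2 (Cxcl1 and Cxcr2) had a log2 ratio of 1 or more, against 15.8% of 1079 genes, and 0 had -1 or less, against 13.3%. These 2 had 6 and 3 untreated UMIs and were measured through their MSA-2 UMIs, so no conclusion is drawn from the count. Cxcl1 came to 0.34 with the list without S100a8 and S100a9, and the interval of Cxcr2 included 0. The median of those 1079 genes was -0.13, and TMM factors shift members and other genes alike. The share of all genes at 1 or more with TMM factors was not counted. Scaling by TMM factors shifted every neutrophil ratio by 1.11 and every fibroblast ratio by 0.22, and gave 1.81 for Cxcl2 in neutrophils. The Cxcl2 ratio was 1.10 when S100a8 and S100a9 were left out of the neutrophil list, and 1.93 with the stricter cell filter, which left 1 untreated cell. With the stricter gate it was lower, at 0.41. The spread over neutrophils was narrow after MSA-2. Their median was 69626 CPM with the middle 50% of cells between 45473 and 94123 CPM, and the untreated median was 30494 CPM with the middle 50% between 16753 and 46613 CPM. All 33 untreated neutrophils and 2540 of 2542 MSA-2 neutrophils had a Cxcl2 UMI.

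The macrophage/monocyte class was smaller in the MSA-2 library but higher in Cxcl2. Its MSA-2 size depended on the setting, at 2434 cells with clusters and 992 with the stricter gate, against 4070 and 3405 untreated cells. The class measured 2399 and 7081 CPM (log2 ratio 1.56, 1.54–1.58), and 4 of 4 members measured in it had a log2 ratio of 1 or more, against 8.54% of 13441 genes, and 0 had -1 or less, against 7.48%. The median cell measured 538 CPM untreated and 4419 CPM after MSA-2. After thinning, 48.8% and 83.7% of the cells had a Cxcl2 UMI (67.8% and 95.7% unthinned). The class was divided, after its values were seen, by whether monocyte genes (Ly6c2, Ccr2, F13a1 and Fn1) had more UMIs in a cell than the complement genes C1qa, C1qb and C1qc. The 342 and 374 monocyte-gene-led cells measured 2162 CPM untreated and 11540 CPM after MSA-2 (log2 ratio 2.42, 2.36–2.47). The 3625 and 1195 C1q-led cells measured 2416 and 6004 CPM (1.31, 1.29–1.33). The groups were thus near each other in the untreated library and apart after MSA-2.

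Fibroblasts also had Cxcl2 above the NK/T class, at 684 and 2139 CPM (log2 ratio 1.65, 1.57–1.72). With a looser gate the ratio was 2.54. It was lower with the stricter gate (1.29), with clusters (1.42) and with equal weight per cell (1.47). The tumor-list class measured 50.5 and 492 CPM, which is below the NK/T class of the same library, at 76.7 and 586 CPM. On the log2 scale the tumor-list class stood at -0.60 (-0.74 to -0.46) against NK/T cells in the untreated and at -0.25 (-0.35 to -0.16) in the MSA-2 library. Its Cxcl2 is therefore not above that of a class not known as a source, although 97.9% of its MSA-2 cells had a Cxcl2 UMI unthinned and 33.3% thinned (NK/T 77.7% and 33.7%).

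**Figure D3:**
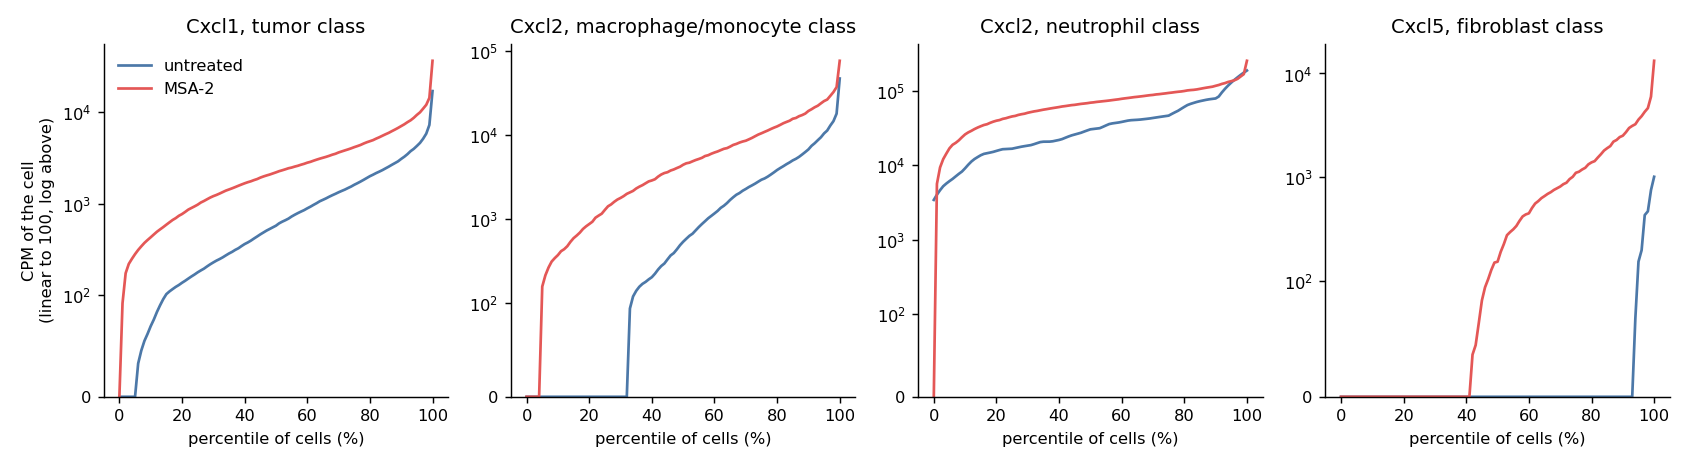
Level per cell (CPM, vertical axis, linear to 100 and logarithmic above) against the percentile of cells in the class, for Cxcl1 in the tumor-list class, Cxcl2 in macrophages/monocytes and neutrophils, and Cxcl5 in fibroblasts. The MSA-2 curve lies above the untreated curve over most of the range for Cxcl1 and Cxcl2, and 58.4% of MSA-2 fibroblasts against 6.67% of untreated ones had any Cxcl5.

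Cxcl3 had the same sources as Cxcl2 at a level lower by more than a factor of 10. Neutrophils measured 2775 CPM untreated (127 UMIs) and 3842 CPM after MSA-2 (log2 ratio 0.47, 0.22–0.73). This ratio was 1.58 with TMM factors and 0.13 with the stricter gate. Macrophages/monocytes measured 34.4 and 330 CPM (3.26, 3.14–3.38), and fibroblasts 28.1 and 131 CPM (2.22, 1.86–2.60; 1.16 with the stricter and 3.72 with the looser gate). The ratio in macrophages/monocytes, 2.51 with the stricter gate, exceeded that in neutrophils. For Cxcl2 the same order (1.56 and 0.69) turned with TMM factors (1.64 and 1.81) and with the stricter cell filter (1.56 and 1.93). Macrophages/monocytes held 55.4% of untreated Cxcl3 UMIs and 7.93% after MSA-2, and neutrophils 9.17% and 62.7%, the latter being 20.2% with the stricter cell filter. Cxcl3 was also less evenly spread than Cxcl2. Only 65.4% of MSA-2 neutrophils had a Cxcl3 UMI, against 33.3% of the untreated ones, and the 10% of MSA-2 neutrophils with the most UMIs of the gene held 48.3% of the Cxcl3 and 23.6% of the Cxcl2 UMIs of the class.

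Within the macrophage/monocyte class, Cxcl3 was higher in the monocyte-gene-led group. It measured 77.5 CPM untreated and 984 CPM after MSA-2 in those cells (log2 ratio 3.67, 3.39–3.95), and 31.4 and 172 CPM in C1q-led cells (2.46, 2.31–2.60). In the macrophage/monocyte class of the MSA-2 library, 1501 of 1569 cells had a Cxcl2 UMI. Of these, 23.2% had a Cxcl3 UMI, against 2.94% of the few cells without Cxcl2. The part of cell depth in this was not tested. In the tumor-list class Cxcl3 (0.943 and 28.8 CPM) stood at -1.16 (-2.02 to -0.17) on the log2 scale against NK/T cells in the untreated library and at 0.28 (-0.20 to 0.81) in the MSA-2 library, so it was not above the NK/T class.

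**Figure D4:**
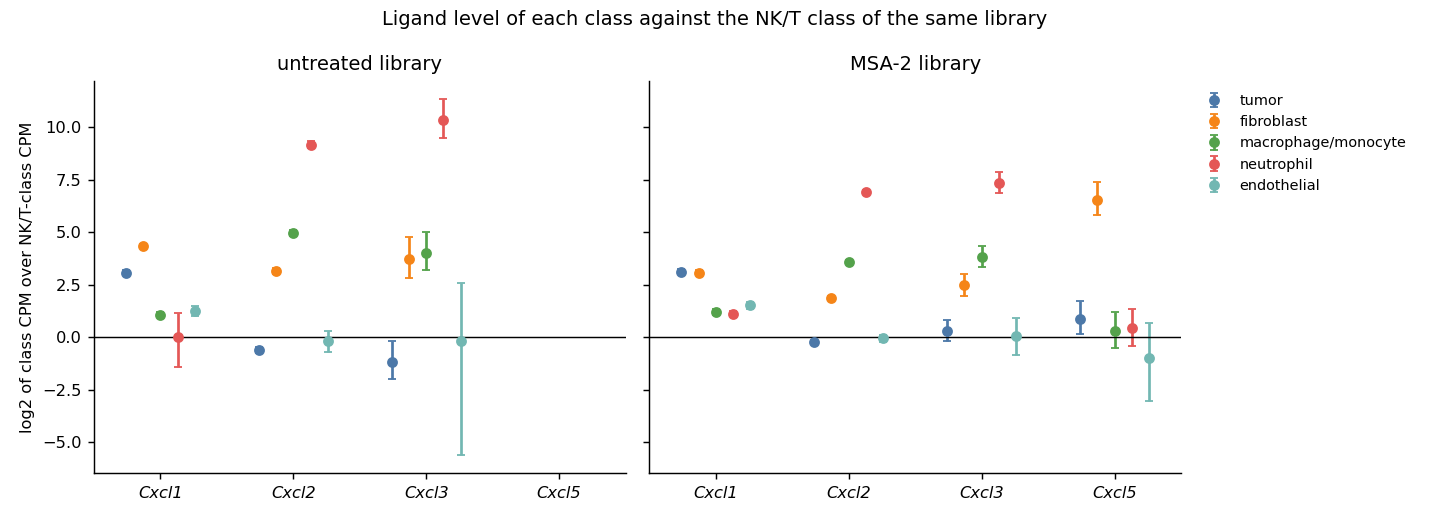
log2 of the ligand level in each class over that in the NK/T class of the same library, with 95% counting intervals; Cxcl5 has no untreated points because NK/T cells had 0 UMIs. Tumor-list and endothelial cells lie near or below 0 for Cxcl2, and of the classes plotted fibroblasts alone lie well above 0 for Cxcl5.

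Cxcl5, also called LIX, is made by epithelial and stromal cells, and in these tumors the fibroblast class held most of its UMIs. Fibroblasts measured 34.1 CPM untreated (80 UMIs) and 942 CPM after MSA-2 (8335 UMIs; log2 ratio 4.79, 4.47–5.12). They held 62.0% (53.1–70.4%) of untreated and 70.6% of MSA-2 Cxcl5 UMIs while making up 1.28% and 4.61% of the UMIs of all genes. In fibroblasts 3 of 4 members measured (Cxcl2, Cxcl3 and Cxcl5) had a log2 ratio of 1 or more, against 7.73% of 11655 genes, and 0 had -1 or less, against 7.87%. Cxcl1 was the member that did not. After thinning, 1.12% of untreated and 32.8% of MSA-2 fibroblasts had a Cxcl5 UMI (6.67% and 58.4% unthinned), and 0% and 1.59% of NK/T cells (0% and 5.86% unthinned).

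Cxcl5 was unevenly spread within the fibroblasts. The median MSA-2 fibroblast measured 154 CPM, and the 10% of cells with the most Cxcl5 UMIs held 58.3% of them. The level was highest just above the class threshold. By fibroblast-list UMIs per 10000, MSA-2 cells at 75–150 measured 161 CPM, those at 150–300 measured 1220.1 CPM, those at 300–600 measured 642 CPM and those at 600 or more, which were 24 cells, measured 229.9 CPM. In the untreated library the last 3 bins measured 20.2, 37.1 and 41.8 CPM, and their intervals overlapped. The fibroblast share of Cxcl5 therefore depended on the threshold, and was 20.7% with a stricter gate, at a log2 ratio of 4.07, and 75.6% with a looser gate, at 6.08.

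**Figure D5:**
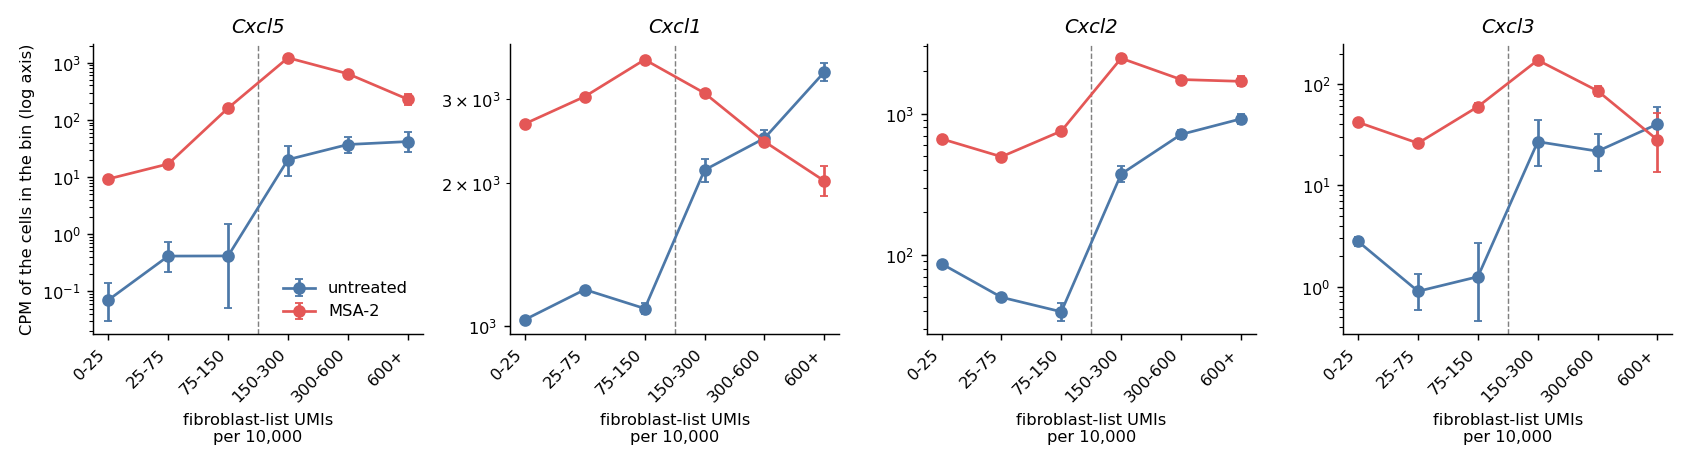
Ligand levels (CPM, log axes) of cells binned by their share of UMIs in the fibroblast list, with 95% counting intervals; the dashed line marks the class threshold of 150 per 10000. Cxcl5 of the MSA-2 library was highest in the bin just above the threshold, and Cxcl1 of the MSA-2 library was lower than untreated in the last bin.

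MSA-2 fibroblasts with and without a Cxcl5 UMI, a division made after the values were seen, were compared in genes picked for that comparison. The 358 cells with a Cxcl5 UMI (median 14843.5 UMIs) measured 15205 CPM of Saa3, an acute-phase protein, and the 255 cells without (median 10749 UMIs) measured 7886 CPM. Csf3, the granulocyte growth factor, measured 433 and 204 CPM, and Il6 measured 928 and 655 CPM, whereas Cxcl13 was nearly equal, at 754 and 729.9 CPM. Of the stromal genes, Dcn (3664 and 5600.2 CPM), Lum (222 and 320.4 CPM) and Pdgfra (111 and 139.9 CPM) were lower in the cells with Cxcl5, and Col1a1 (8114 and 7439 CPM) and Thy1 (79.4 and 67.7 CPM) were higher. In the untreated library, with 12 cells that had a Cxcl5 UMI and 168 that did not, Saa3 (5115 and 936 CPM), Csf3 (201 and 47.2 CPM) and Il6 (543 and 143 CPM) differed in the same direction as after MSA-2. Dcn (3909.7 and 3598 CPM), Lum (999 and 685 CPM) and Pdgfra (190.1 and 121 CPM) went the other way. Krt8 and Krt18 had 0 UMIs in both groups. The part of the depth difference between the groups was not tested.

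In the other plotted classes, Cxcl5 levels of the MSA-2 library were close to those of NK/T cells, whereas the 11 pericytes measured 297 CPM (26 UMIs). The tumor-list class measured 0.161 and 18.7 CPM and held 24.9% of the MSA-2 Cxcl5 UMIs through its size. Its level stood at 0.88 (0.16–1.72) on the log2 scale over NK/T cells, which measured 10.1 CPM. Macrophages/monocytes (12.3 CPM), neutrophils (13.5 CPM) and endothelial cells (5.13 CPM) of the MSA-2 library did not differ from NK/T cells beyond counting error.

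Cxcr2, the receptor itself, was above the NK/T class in the neutrophil class alone among the 6 classes plotted. Of the smaller classes, the 26 dendritic cells of the MSA-2 library had 3 UMIs (32.9 CPM, 6.78–96.1). Neutrophils had 3 UMIs (65.5 CPM) untreated and 925 UMIs (186 CPM) after MSA-2, a log2 ratio of 1.51 whose interval of -0.04 to 3.79 includes 0. With TMM factors the ratio was 2.62, and the shift of 1.11 takes the interval above 0, so the reading depends on the scaling. Neutrophils held 10.7% of the 28 untreated UMIs (2.27–28.2%) and 73.7% of the 1255 MSA-2 UMIs (31.7% with the stricter cell filter), and they made up 75.2% of the total difference. After thinning, 17.0% of MSA-2 neutrophils had a Cxcr2 UMI (27.3% unthinned, median depth 1793.5 UMIs) and 0 of 252 thinned NK/T cells did (0.391% unthinned). The other plotted classes of the MSA-2 library lay between 0.676 and 2.37 CPM, with intervals that overlapped those of their neighbours in the order. The tumor-list class held 60.7% of the untreated Cxcr2 UMIs, but this was 17 UMIs at 0.124 CPM, against 0.176 CPM in NK/T cells.

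The receptor and Cxcl2 were counted in the same cells in neutrophils. The 695 MSA-2 neutrophils with a Cxcr2 UMI (median 1934 UMIs) measured 68793 CPM of Cxcl2, and the 1847 without (median 1745 UMIs) measured 72245 CPM. Retnlg was higher in the cells with Cxcr2, at 11047 and 8020.0 CPM, as was Mmp8, at 572 and 363 CPM. Ly6g measured 186 and 141 CPM. The chemokines Ccl3 (9175 and 11421 CPM) and Ccl4 (17646 and 21384 CPM) were lower in the cells with Cxcr2. This division and its genes, too, were chosen after the values were seen, and the part of the depth difference was not tested.

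Neutrophil mRNAs were also counted in the other classes, and more so in the MSA-2 library. Whether they came from free RNA, doublets or the cells themselves was not tested. The sum of S100a8 and S100a9, abundant neutrophil mRNAs, measured 2.36 CPM in untreated tumor-list cells, 0.852 CPM in fibroblasts, 1.84 CPM in macrophages/monocytes and 1.23 CPM in NK/T cells. In the MSA-2 library the same classes measured 346, 353, 503 and 308 CPM. The whole 12-gene neutrophil list had a sum of 32.4 CPM in untreated tumor-list cells, led by Mmp9 at 22.9 CPM. In those of the MSA-2 library the sum was 510.4 CPM, and all 12 genes were found in both. As a description, the ligand UMIs were divided by the S100a8 and S100a9 UMIs of each class. In the MSA-2 library Cxcl2 came to 0.946 UMIs per such UMI in neutrophils, 1.42 in the tumor-list class, 1.31 in endothelial cells and 1.90 in NK/T cells, but to 6.06 in fibroblasts and 14.1 in macrophages/monocytes. In the untreated library few S100a8 and S100a9 UMIs were counted outside neutrophils. The ratio there was 2.62 in neutrophils, 21.4 in the tumor-list class and 62.3 in NK/T cells. It was 802 in fibroblasts and 1304 in macrophages/monocytes, the highest of these classes in this library too. Those 2 values rest on 2 and 41 UMIs of S100a8 and S100a9. For Cxcr2 the ratio in the MSA-2 library was 0.00248 in neutrophils, 0.00369 in the tumor-list class, 0.00354 in macrophages/monocytes and 0.00673 in fibroblasts, and 0.0462 in dendritic cells, from 3 UMIs. For Cxcl5 in that library it was 0.000179 in neutrophils and 2.67 in fibroblasts.

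The remaining genes of the pathway were described from 8 fixed lists of 61 genes, of which Il36a and Cxcl11 were not among the features. Of the other ELR chemokines and CXCR2-family receptors, 2 of 6 genes with at least 20 UMIs had a log2 ratio of 1 or more over all cells and 0 had -1 or less, against 12.3% and 8.94% of all genes measured. Cxcr1, the sister receptor, had 2 UMIs untreated and 182 after MSA-2 (log2 ratio 6.44, 4.57–9.50), and 139 of the 182 lay in neutrophils. Ackr1, which carries chemokines across venular endothelium, measured 33.1 and 181 CPM in endothelial cells (2.45, 1.74–3.25). Cxcl15 was left out with 11 UMIs.

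The genes of neutrophil attraction by other receptors, of retention and of growth held 5 of 10 genes at 1 or more and 1 at -1 or less over all cells (all genes, 12.3% and 8.94%). Within neutrophils the list had 2 of 9 genes at 1 or more and 3 at -1 or less (all genes, 15.8% and 13.3%), with a median of -0.68. Csf3 measured 1.51 and 46.1 CPM over all cells (log2 ratio 4.93, 4.76–5.11), with 59.2 and 353 CPM in fibroblasts and 82.7 and 575 CPM in endothelial cells. Fpr1, the formyl peptide receptor, measured 2.36 and 39.8 CPM (4.08, 3.94–4.22). Cxcr4, which retains neutrophils in bone marrow, was the gene that was lower, at 18.1 and 3.34 CPM (-2.44, -2.56 to -2.32). Within neutrophils it measured 284 CPM (13 UMIs) and 17.1 CPM (-4.05, -4.90 to -3.08), and within macrophages/monocytes 103 and 42.2 CPM. Its ligand Cxcl12 was higher over all cells (2.42, 2.32–2.51) and measured 320.1 and 516 CPM in fibroblasts.

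The genes that relay or end CXCR2 signals were lower or little different. Of 11 genes, 0 had 1 or more and 5 had -1 or less over all cells (all genes, 12.3% and 8.94%), among them Rac2 (56.3 and 24.2 CPM; -1.22) and Plcb2 (2.36 and 0.547 CPM; -2.11). Within macrophages/monocytes 0 of 11 passed either bound (8.54% and 7.48% of all genes measured). Within neutrophils 6 of 10 had -1 or less (13.3% of all genes), with a list median of -1.04, against -0.13 for all genes measured there. The TMM shift of 1.11 would bring the list median near 0 but moves all genes alike. The macrophage/monocyte and NK/T classes were smaller in the MSA-2 library, and the part of this in the values over all cells was not tested. Among the adhesion genes, Selp was higher over all cells of the MSA-2 library (1.89, 1.64–2.14) and the integrin gene Itgal was lower (-1.64, -1.79 to -1.50). Selp, the P-selectin of activated endothelium, measured 211 and 550.2 CPM in endothelial cells.

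Of 5 upstream cytokines, 2 had 1 or more (Il6, 3.17, and Il1a, 2.50) and 1 had -1 or less (Il17a, -1.44), beside 12.3% and 8.94% of all genes. Il1b and Tnf, both inducers of the ligands, parted in macrophages/monocytes. Il1b measured 2433 and 851 CPM there (log2 ratio -1.52, -1.55 to -1.48), and Tnf measured 306 and 1102 CPM (1.85, 1.80–1.89). In neutrophils Il1b was high in both libraries, at 16341 and 15453 CPM (-0.08, -0.18 to 0.03). Thus Il1b and Cxcl2 had opposite signs in macrophages/monocytes, where Cxcl2 was higher.

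Of 9 NF-kB factors and feedback genes, 1 had 1 or more over all cells and 0 had -1 or less, which is near the 12.3% and 8.94% of all genes. That gene was Tnfaip3, the deubiquitinating brake of NF-kB, at 90.4 and 191 CPM (1.08, 1.05–1.11). It had 1.78 in the tumor-list class, 1.39 in fibroblasts and 1.71 in macrophages/monocytes. In neutrophils, NK/T cells and endothelial cells 0 of the 9 genes, Tnfaip3 included, had 1 or more, against 15.8%, 4.51% and 6.98% of the genes measured there. Of 6 genes of ligand mRNA decay, 1 had 1 or more (all genes, 12.3%), the stabilizing adaptor Traf3ip2 (1.19, 1.12–1.26), and Zfp36, which destabilizes the mRNAs, measured 358.8 and 360.0 CPM. Of 3 other chemokines from the same gene region, 1 had 1 or more over all cells (all genes, 12.3%). Cxcl13, a B cell attractant, measured 1.43 and 42.0 CPM (4.88, 4.70–5.06), and 14.5 and 746 CPM in fibroblasts. In fibroblasts all 3 (Cxcl9, Cxcl10 and Cxcl13) had 1 or more, against 7.73% of the genes measured there, with ratios of 2.16, 1.89 and 5.69.

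The patterns of the members were last compared with those of all 6334 genes that reached 50 CPM in any of 12 sums of a class in a library. The measure was Pearson's r of log2 levels after adding 10 CPM, given as a description, since the sums share libraries and may share free RNA. Among the nearest genes to Cxcl1 were Vcan (0.96), Ptges, Dcn and Dcbld2. Those nearest to Cxcl2 were Acod1 (0.97), Cxcl3 (0.96), Il1a, Slpi and Rffl, and those nearest to Cxcl3 were Fam71f2 (0.96), Cxcl2, Trim30c, Slpi and Ifit1bl2. Cxcl5 was nearest to Cxcl13 (0.97), Tnn, Saa1, C430002N11Rik and Gm49257. Cxcr2 was nearest to Stfa1 (0.999), Ly6g, Stfa2l1, Mrgpra2b and Gm20406, a pattern set by the MSA-2 neutrophils, since the untreated neutrophils, at under 50 cells, were not a point. Between members, r was 0.27 for Cxcl1 with Cxcl2 and 0.65 for Cxcl1 with Cxcl5.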

How the data were processed

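The counts are raw UMI counts, used as deposited; per the file headers and the authors' notes they came from 10x 3′ v3.1 libraries aligned to mm10 with Cell Ranger (7.0.1 in the headers, 7.0.0 in the notes). The genes and lists were chosen with earlier results of these data known, and the gate thresholds were set with the marker shares in view. Cells with under 500 genes or over 20% mitochondrial UMIs were removed, then doublets by Scrublet (705 untreated and 570 MSA-2 cells). Named genes are the members, the markers, the genes of the 8 lists and the nearest genes by likeness; some of these are not reported here, and other splits were made after values were seen. A gene was compared where at least 5 UMIs were expected in the shallower sum. Ratios carry exact conditional binomial intervals, levels Poisson intervals and shares Clopper-Pearson intervals; a 0 was set to 3 counts. With 1 library per condition, no test was made and no replicate could be checked. TMM factors came from edgeR 4.0.16. Python 3.11.15, numpy 2.4.6, scipy 1.17.1, pandas 2.3.3, scanpy 1.11.5, leidenalg 0.10.2 and matplotlib 3.10.9 were used.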

Additional observations from a re-analysis of the deposited data

How the results depend on the processing

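Each condition is 1 library of pooled mice, so no interval covers variation between mice, and no paired analysis was possible because there are no replicates. An alternative value is called the same where it lies within the 95% counting interval of the value reported, so that shallow values may differ widely and deep ones little. Of 229 alternative values, 129 were the same in this sense, 97 moved and 3 changed sign. Of these, 73 concerned the totals and main sources (31 the same, 42 moved). All 3 sign changes were for Cxcl1 in fibroblasts, 0.07 in the analysis reported: -0.0495 with clusters, -0.0257 with equal weight per cell and -0.22 with the stricter gate. The causes were not tested. The tumor list marked a class with little Krt8, Krt18 and Krt19 mRNA, and untreated neutrophils were 33 cells.

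The 42 moved log2 ratios and shares of MSA-2 UMIs for the totals and main sources follow by setting; 55 further values moved, among them Cxcl1 in fibroblasts (0.94, looser gate), Cxcl2 in neutrophils (1.10, list without S100a8 and S100a9) and, with the stricter cell filter, the neutrophil shares of Cxcl3 (20.2%) and Cxcr2 (31.7%) and the macrophage/monocyte share of Cxcl2 (21.5%). TMM factors: Cxcl1 in tumor-list cells 1.30, Cxcl1 over all cells 1.45, Cxcl2 in macrophages/monocytes 1.64, Cxcl2 over all cells 2.89. Clusters: Cxcl1 in tumor-list cells 1.40, Cxcl2 in macrophages/monocytes 1.66, and shares of 91.0% (Cxcl1, tumor list), 66.7% (Cxcl2, neutrophils) and 81.6% (Cxcl5, fibroblasts). Equal weight per cell: Cxcl1 in tumor-list cells 1.40, Cxcl2 in macrophages/monocytes 1.69, and over all cells Cxcl2 4.09, Cxcl3 5.24, Cxcl5 6.15 and Cxcr2 6.83. Stricter gate: Cxcl1 in tumor-list cells 1.34, Cxcl2 in macrophages/monocytes 1.27, Cxcl5 in fibroblasts 4.07, with shares of 76.9% (Cxcl1, tumor list) and 20.7% (Cxcl5, fibroblasts). Looser gate: Cxcl2 in macrophages/monocytes 1.73, Cxcl5 in fibroblasts 6.08, with shares of 83.5% (Cxcl1, tumor list), 60.3% (Cxcl2, neutrophils) and 75.6% (Cxcl5, fibroblasts). Stricter cell filter: over all cells Cxcl1 1.49, Cxcl2 1.76, Cxcl3 3.39 and Cxcr2 4.21, with shares of 88.4% (Cxcl1, tumor list) and 20.6% (Cxcl2, neutrophils). No cell filter: Cxcl2 in macrophages/monocytes 1.62, Cxcl2 over all cells 2.97, with shares of 87.2% (Cxcl1, tumor list), 61.4% (Cxcl2, neutrophils) and 67.3% (Cxcl5, fibroblasts). Doublets kept: Cxcl2 in macrophages/monocytes 1.62, with shares of 87.3% (Cxcl1, tumor list), 60.1% (Cxcl2, neutrophils) and 67.4% (Cxcl5, fibroblasts). Neutrophil list without S100a8 and S100a9: shares of 87.9% (Cxcl1, tumor list) and 62.9% (Cxcl2, neutrophils).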
